A study of Lolium perenne with 10 samples.

Results

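Drought-stressed leaves of perennial ryegrass (Lolium perenne), a forage and turf grass, were compared with leaves of untreated seedlings by RNA-seq. The comparison takes 4 of the 10 libraries of the series, chosen by their labels: 2 from drought and 2 from control, each labelled WT leaf and made from 30 seedlings. Drought seedlings were 7 days old when watering stopped and went without water for 7 days, per the design text. The treatment field instead describes Arabidopsis, with watering stopped at 14 days for 2 weeks and a recovery of 5 days, so the length of the drought and whether plants were rewatered cannot be told from the labels. Control seedlings were not stressed, and their age at harvest is not given in the sources used here, so drought and a difference in age cannot be told apart. Both groups grew in peat soil and vermiculite in chambers set to 22 °C in the light and 18 °C in the dark, with 16 h of light a day. The other 6 libraries, 2 each from submergence and from the temperature groups called title-cold and title-heat here, serve as a further reference. The titles and treatment fields of those temperature groups contradict each other, so no temperature is attached to them.

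Grasses that lose water close their stomata, make abscisic acid, and accumulate protective proteins such as dehydrins together with sugars and proline, while transcripts for photosynthesis and growth commonly decline in leaves. Which of these genes moved here cannot be read from the files, because each gene is an assembled sequence cluster with an identifier and no name. None of the 46394 identifiers matched the 56406 genes of the RefSeq table for assembly Kyuss_2.0, and 0 of 38 symbols on 6 lists (dehydration and abscisic acid, photosynthesis, senescence, sugar, oxidative stress, housekeeping) could be found. The leaf label could not be checked against leaf markers for the same reason. At most 2 rising and 2 falling genes are therefore given by identifier, and others are described by their level and behaviour.

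Total counts were 11319380 and 11398828 in the drought libraries and 10847727 and 11265620 in the control libraries, and the 10 libraries together spanned 10847727 to 12605087. Genes read at 10 counts or more numbered 18638 and 18802 in drought and 18079 and 18773 in control. The groups overlapped, and an exact permutation test over the 4 libraries gave p = 0.667 (2-sided, where 0.333 is the smallest p that 2 against 2 allows). Nothing in the labels says that the 2 libraries of a group came from separate cultures. P-values thus describe a spread between libraries that can be technical in part. In the gene tests that spread was estimated over all 10 libraries, not from drought and control alone. A lower level in a leaf can also mean fewer cells of a kind or less RNA in each, and these cannot be told apart in whole leaves.

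Drought and control leaves differed in a large part of the transcriptome. Of 27571 genes tested, 7417 (26.9%) passed an adjusted p below 0.05 in edgeR's quasi-likelihood test and were called, with 4194 (15.2%) higher and 3223 (11.7%) lower in drought. At an unadjusted p below 0.05 the number was 10373 (37.6%). Genes were kept for testing by their counts over all 10 libraries, so some had few or no reads in drought and control. Among genes not called, 4506 had 0 counts throughout drought, throughout control or in both groups. The percentages are thus shares of all tested genes, not of genes read in these leaves. Fitted alone, the 4 drought and control libraries gave 5462 calls, and 70.7% of the 7417 were called in the same direction. Both drought libraries lay above both control libraries in each of the 4194 higher genes and below them in each of the 3223 lower genes. Over all tested genes, called or not, the groups failed to overlap in 7888 genes with drought higher and in 7939 with drought lower.

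With TMM factors, rises were larger than falls among called genes. The median log2 fold change was 1.82 among higher genes (middle 50%, 1.13 to 2.91) and −1.31 among lower genes (−1.97 to −0.92), with genes at 0 counts in a group set at a bound of 3 counts per library. Median levels were 23.0 CPM in drought and 6.17 CPM in control for the higher genes, and 6.59 CPM in drought and 17.5 CPM in control for the lower genes, where CPM is the count per 1000000 reads, with library depth corrected for composition by TMM factors. A change of at least 2-fold was reached by 3358 higher and 2254 lower genes, and the other 836 higher and 969 lower genes changed by less. At least 4-fold was reached by 1893 higher genes (45.1% of them) and 769 lower genes (23.9%). At least 16-fold was reached by 508 and 100, and at least 64-fold by 106 and 10. The genes were picked by the same contrast, so these sizes describe the calls and test nothing further.

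The balance of rises and falls turned with upper-quartile factors alone of 4 scalings. Higher genes were 56.5% of calls with TMM factors, 56.25% with RLE factors and 55.76% with total counts. With upper-quartile factors they were 44.4% (3534 higher and 4420 lower), and the log2 fold changes shifted by a median of −0.20. In all, 6650 genes (89.7% of the calls) were called in the same direction with each of 4 scalings, 3534 higher and 3116 lower. Leaving out control replicate 2 brought the calls to 4755, and lower calls numbered 1929 without it, 2120 without control replicate 1 and 2076 without drought replicate 2. In all, 3631 genes (49.0%), 2280 higher and 1351 lower, were called in the same direction whichever of the 4 libraries was left out.

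**Figure D1:**
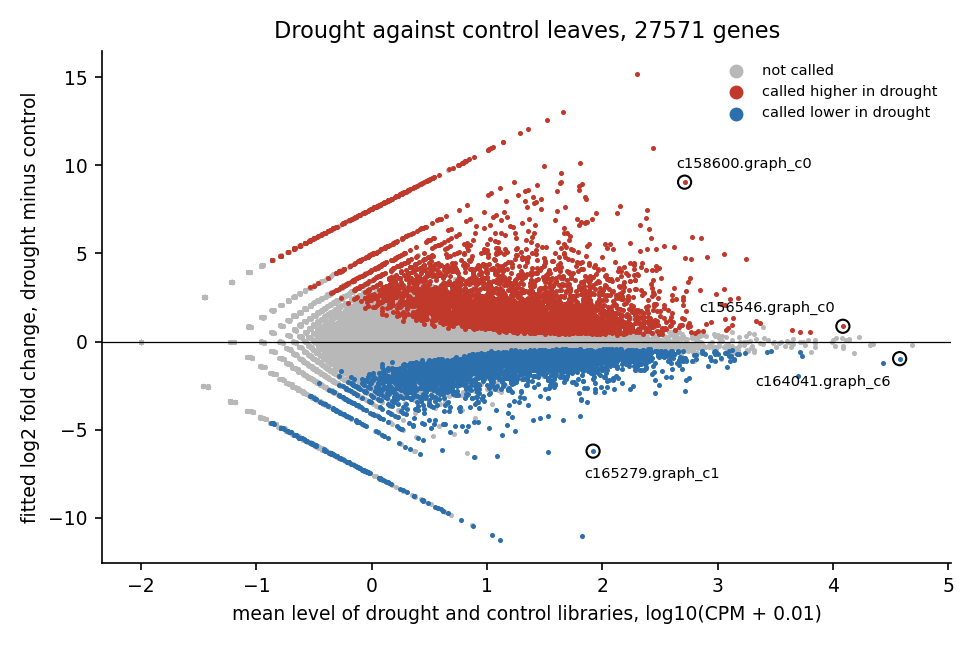
Each point is a tested gene, with its mean level in drought and control libraries on the horizontal axis (log10 of CPM + 0.01) and its fitted log2 fold change, drought minus control, on the vertical axis. Red points are the 4194 genes called higher, blue points the 3223 called lower, grey points were not called, and circles mark the 4 named genes. The straight outer bands are genes at or near 0 counts in a group, whose fitted values depend on the prior count.

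Among called genes with at least 10 counts in each of the 4 libraries, the steepest rise was that of c158600.graph_c0. It had 7552 and 12741 counts in the drought libraries and 22 and 15 in the control libraries. Its level was 1029 ± 351 CPM in drought and 1.96 ± 0.71 CPM in control (SD, n = 2 each), a log2 fold change of 9.05 with SE 0.85 (adjusted p = 0.000196, edgeR). By level it stood at rank 114 among tested genes in drought and at rank 15804 in control. Elsewhere it measured 240 and 255 CPM in title-heat, 2.31 and 13.7 CPM in submergence, and 1.03 and 1.40 CPM in title-cold. Drought exceeded title-heat by 2.06 on the log2 scale (adjusted p = 0.0389, edgeR), a call that was lost whichever drought or control library was left out (adjusted p = 0.0530 to 0.151).

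The largest gain in reads belonged to c156546.graph_c0, a transcript abundant in every group. It had 15640 and 15750 CPM in drought and 9418 and 7789 CPM in control, means of 15700 ± 81.3 and 8604 ± 1152 CPM (SD, n = 2 each). The groups did not overlap, and the log2 fold change was 0.87 with SE 0.20 (adjusted p = 0.0108, edgeR). Without control replicate 2 the call was lost (adjusted p = 0.0886). By level it ranked 7 in drought and 18 in control. Its lowest levels in the series were in title-cold, at 838 and 719 CPM, followed by submergence at 2016 and 2791 CPM. Levels in title-heat, 9940 and 10960 CPM, did not pass the test against drought (adjusted p = 0.0613, edgeR).

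The steepest fall among called genes with at least 10 counts in each of the 4 libraries was that of c165279.graph_c1. It had 19 and 24 counts in the drought libraries and 1077 and 2136 in the control libraries. Levels were 2.19 ± 0.31 CPM in drought and 164 ± 61.6 CPM in control (SD, n = 2 each), a log2 fold change of −6.22 with SE 0.32 (adjusted p = 7e-06, edgeR). It was highest in title-heat, at 1863 and 1754 CPM, then control, then submergence at 41.5 and 45.3 CPM, and title-cold at 2.58 and 2.07 CPM overlapped drought and did not pass the test against it (adjusted p = 0.999, edgeR). Between drought and title-heat the log2 difference was −9.68 (adjusted p = 1e-06, edgeR).

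The largest loss of reads was in c164041.graph_c6, the second most-read gene in drought and in control alike. It had 21530 and 29460 CPM in drought and 60690 and 39230 CPM in control, means of 25500 ± 5605 and 49960 ± 15170 CPM (SD, n = 2 each). The log2 fold change was −0.97 with SE 0.28 (adjusted p = 0.0317, edgeR). This call was lost without control replicate 1 (−0.62, adjusted p = 0.219), without drought replicate 1 (−0.76, adjusted p = 0.153) and when the 4 libraries were fitted alone (adjusted p = 0.0627). In title-cold it was the highest of the 5 groups at 64870 and 73130 CPM, and in submergence the lowest at 12460 and 16800 CPM.

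**Figure D2:**
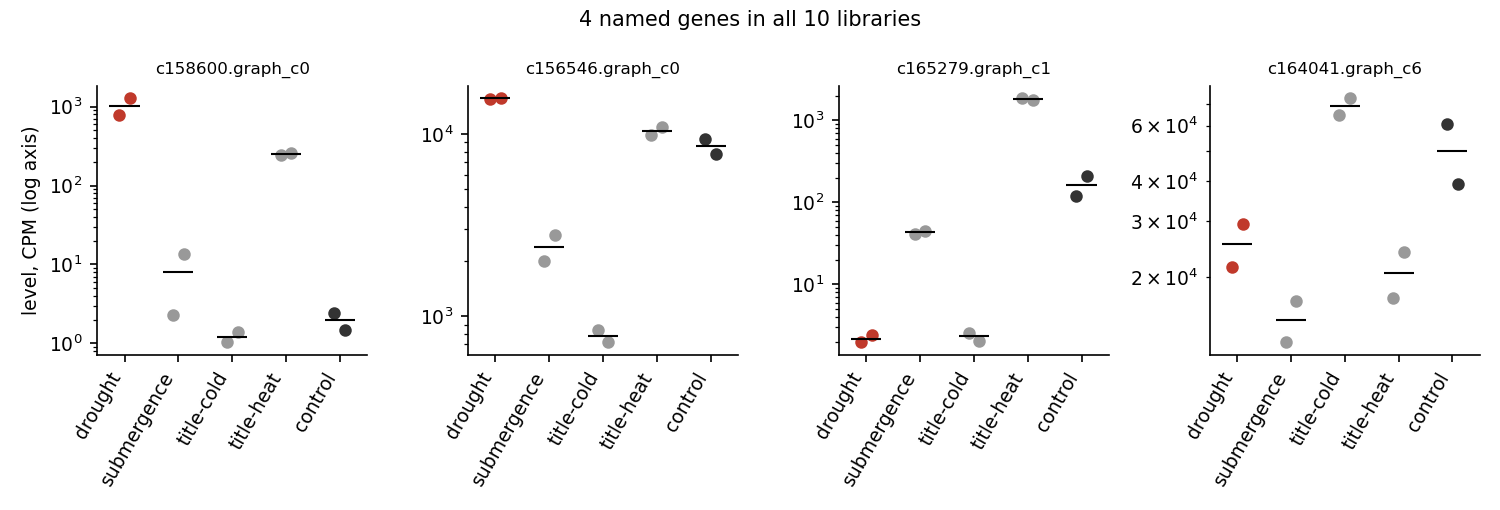
Levels of the 4 named genes in CPM on log axes, a panel per gene, with a point for each of the 2 libraries of a group and a line at their mean. Drought is in red and control in black. c158600.graph_c0 lay at 781 and 1278 CPM in drought and under 3 CPM in control, while c165279.graph_c1 lay at 1.97 and 2.41 CPM in drought and at 120 and 207 CPM in control.

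Some transcripts were read in only a single group of the comparison. At least 10 counts in both drought libraries and 0 in both control libraries were found for 139 genes, of which 132 were called higher. The reverse, at least 10 counts in both control libraries and 0 in both drought libraries, held for 61 genes, of which 43 were called lower. Both sets were picked on the counts that the test uses, so the number called among them is a description. They were mostly of low level, with medians of 3.25 CPM in drought and 2.72 CPM in control. A count of 0 allows up to 3 counts in that library, for counting error only.

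The most abundant of the 139 had 2769 and 5125 counts in drought, 0 and 0 in control, 75 and 20 in title-heat, and at most 4 in any submergence or title-cold library. At 400.2 ± 161 CPM (SD, n = 2) it was at least 1278-fold higher in drought than in control (adjusted p = 8.48e-05, edgeR). The next had 761 and 1015 counts in drought, 269 and 354 in title-cold, and at most 2 in every other library, at least 288-fold higher than in control (adjusted p = 2.78e-05). The first was thus read mainly in drought and the second in drought and title-cold. Of the 61 genes without drought reads, the most abundant in control had 113 and 403 counts there, 25.9 ± 18.8 CPM (SD, n = 2), at least 84.7-fold lower in drought (adjusted p = 0.0132, edgeR), a call lost without drought replicate 1 (adjusted p = 0.0595), without drought replicate 2 (adjusted p = 0.0714) and without the submergence libraries (adjusted p = 0.0541). It was read in all 6 libraries of the other treatments, at 62 to 598 counts.

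Genes read in drought alone were few. Of the 139, 14 also had 0 counts in all 6 libraries of the other treatments. They passed the filter on low counts through drought alone and were picked for having no reads in control, so that all 14 were called higher than control follows from the choice. Against each of the 4 other groups, by the test described with the genes that set drought apart, 7 of the 14 passed. The 0 counts in those groups also picked the genes, so the 7 are a description and lend no support. Their counts in the drought libraries ran from 11 to 133, their median level was 3.03 CPM, and the highest reached 12.6 CPM. None of the 61 genes without drought reads was at 0 in all 6 other libraries.

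Calls were most frequent among genes of middle and high level. Classes were set by the mean of the 5 group means. Under 1 CPM, 6.38% of 6723 genes were called. The share was 22.9% of 11338 genes at 1 to 10 CPM, 45.2% of 8137 at 10 to 100 CPM, 53.4% of 1278 at 100 to 1000 CPM and 29.5% of the 95 genes over 1000 CPM, against 26.9% overall. Over 1000 CPM 11 genes were called higher and 17 lower, and at 10 to 100 CPM 2128 were higher and 1551 lower.

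Size fell with level in both directions. The median log2 change of higher genes was 3.08 under 1 CPM, 2.40 at 1 to 10, 1.40 at 10 to 100, 1.36 at 100 to 1000 and 1.02 over 1000 CPM, and that of lower genes ran from −2.65 to −0.85 over the same classes. The standard error fell as well up to 1000 CPM, with a median of 1.24 under 1 CPM and 0.18 at 100 to 1000 CPM. It was 0.19 over 1000 CPM. A rare gene thus needed a larger change to be called. The excess of rises at 1 to 10, 10 to 100 and 100 to 1000 CPM (54.6%, 57.8% and 51.8% of calls) turned into an excess of falls with upper-quartile factors (43.6%, 45.0% and 39.3%). The excess of rises remained with RLE factors (54.4%, 57.4% and 51.6%) and with total counts (54.2%, 57.1% and 50.3%).

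**Figure D3:**
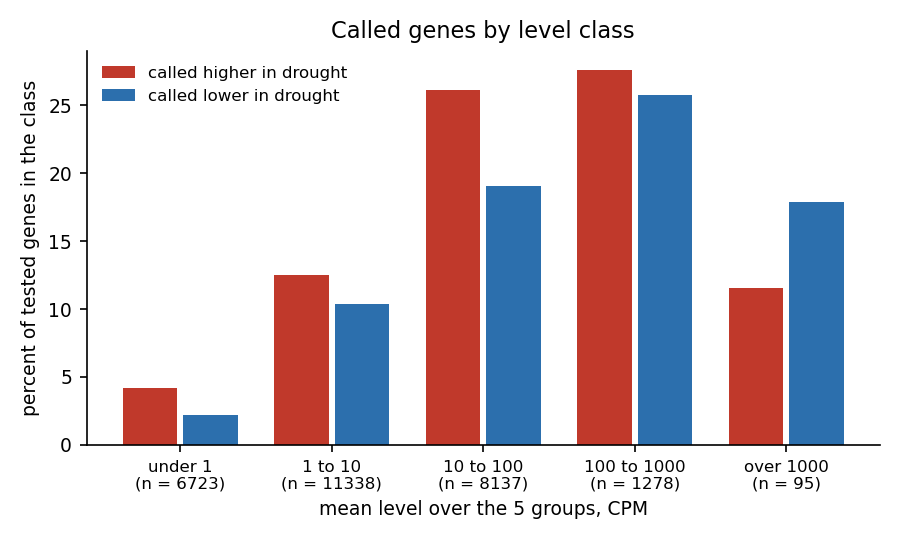
Percent of tested genes called higher (red) and lower (blue) in drought than in control, in 5 classes of mean level in CPM, with the number of genes in each class. The share called is highest at 100 to 1000 CPM, where 27.6% were higher and 25.7% lower, and lowest under 1 CPM, where 4.2% and 2.19% were.

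In reads, drought leaves drew less on their most abundant transcripts. The 10 most-read genes held 17.8% and 17.5% of counts in the drought libraries and 24.0% and 21.0% in the control libraries, and the 100 most-read held 44.8% and 44.0% in drought and 51.8% and 48.4% in control. It took 167 and 185 genes to hold 50% of counts in drought, and 85 and 117 in control. The groups did not overlap in any of these measures, and the exact permutation p was 0.333 for each, the smallest possible here. Genes over 1000 CPM held 42.6% and 41.8% of counts in drought and 49.9% and 46.6% in control, while those at 10 to 100 CPM held 23.7% and 24.5% in drought and 19.8% and 21.6% in control.

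The loss of reads was concentrated in fewer genes than the gain. The share of counts that moved came to 21.6 percentage points between the mean profiles. The 10 genes that lost most carried 32% of the loss (5 of them called lower), and the 10 that gained most carried 10.9% of the gain (8 of them called higher). The 100 with the largest loss carried 52.4% and the 100 with the largest gain 34.8%. The third most-read gene of control was among the losers, at 12500 and 20230 CPM in drought and 46680 and 29620 CPM in control (log2 fold change −1.22, SE 0.30, adjusted p = 0.0158, edgeR). That call was lost without control replicate 1 (adjusted p = 0.116), without drought replicate 1 (adjusted p = 0.0843) and with the 4 libraries fitted alone (adjusted p = 0.0584).

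The identity of the top transcripts stayed largely the same. Of the 10 most-read genes in drought, 7 were also among the 10 most-read of control, and the overlap was 78 of 100 and 678 of 1000. The single most-read gene was the same in both groups, at 50160 and 40160 CPM in drought and 57190 and 47270 CPM in control, and was not called (adjusted p = 0.576, edgeR). Of the 1000 most-read genes of drought 405 were called higher and 143 lower, and of the 1000 most-read of control 106 higher and 371 lower. Each list was ranked on the libraries of its own group, which favours these directions. Gene lengths are not given, so a rank by reads is not a rank by molecules.

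Genes called higher together held 27.2 ± 1.47% of counts in drought and 9.61 ± 0.29% in control (SD, n = 2 each). Genes called lower held 13.6 ± 0.65% in drought and 27.5 ± 0.89% in control. In title-heat the higher set held 20.2 ± 0.64% and the lower set 22.2 ± 0.80%, and in submergence 20.3 ± 0.26% and 20.8 ± 0.03%. Title-cold stood apart, with 12.7 ± 0.42% in the higher set and 32.8 ± 1.53% in the lower set, and the share of that lower set was above that of control. The sets were chosen on drought and control, so only the shares of the other 3 treatments are free of that choice in part, and no test was made of them.

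**Figure D4:**
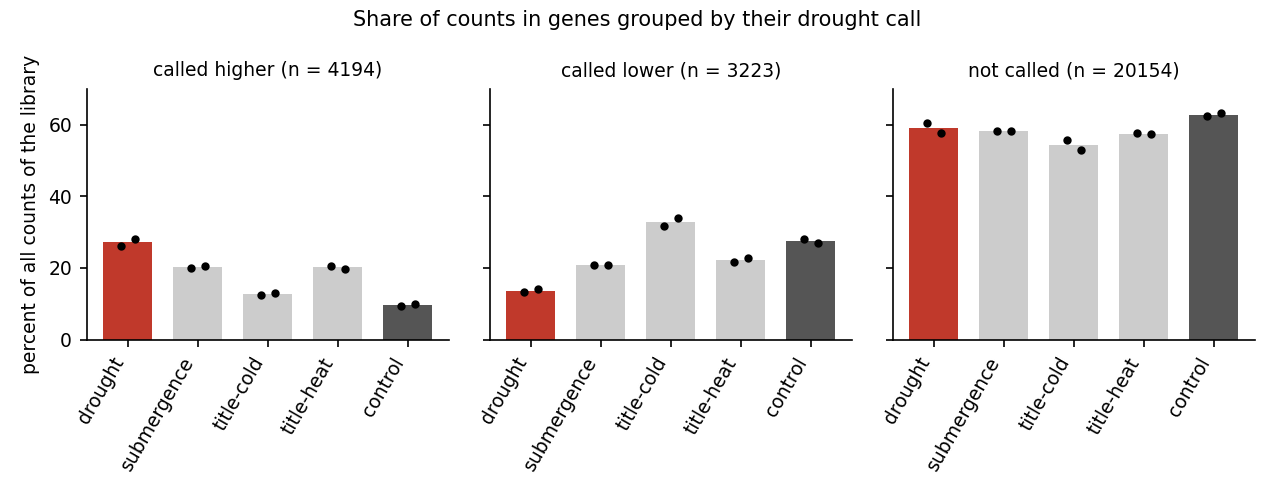
Percent of all counts of a library held by genes called higher in drought, called lower in drought, and not called. Bars are means of 2 libraries and points the libraries. The higher set holds 26.1% and 28.2% of counts in drought and 9.40% and 9.82% in control.

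A gene that was not called is not thereby shown to be unchanged. Of the 20154 genes not called, 15648 had reads in both groups and an interval for their fold change. The 95% interval lay wholly inside a 2-fold change either way for 4174 (26.7%), with a median level of 24.5 CPM. For 11474, at a median of 2.35 CPM, it reached a 2-fold change, and for 6857 of these a 4-fold change. The share inside a 2-fold change rose with level. It was 85.1% over 1000 CPM, 82.5% at 100 to 1000 CPM, 67.6% at 10 to 100 CPM, 8.23% at 1 to 10 CPM, and 0 of 2764 genes under 1 CPM.

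More genes differed between the drought replicates than between the control replicates. Among genes with a group mean of at least 10 CPM, 397 of 8971 (4.43%) differed at least 2-fold between the drought replicates, and 239 of 8485 (2.82%) between the control replicates. At least 4-fold differences numbered 94 in drought and 58 in control. The biological coefficient of variation, estimated from the 2 libraries of a group alone, was 35.1% in drought, the highest of the 5 groups, and 27.2% in control, and the other groups had 17.0% to 32.4%. With 1 pair of libraries a group, whether the spread differs was not tested.

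Of the 94 genes that diverged 4-fold between drought replicates, 11 were called higher and 1 lower, which is 12.8% against 26.9% of all tested genes. The 94 had a drought mean of at least 10 CPM, whereas all tested genes include rarer ones. Among tested genes, 45.2% were called at 10 to 100 CPM, 53.4% at 100 to 1000 CPM and 29.5% over 1000 CPM. A large spread between the drought libraries raises the error of the contrast with control, so the 12.8% follows in part from how the genes were picked. In 47 of them the drought libraries lay on opposite sides of both controls. Replicate 1 was the higher library in 55 and replicate 2 in 39, so the divergence did not run in a single direction.

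Set beside the rest of the series, the distance of drought from title-heat lay within the range of its distances from control. The percent of counts that would have to move between genes to turn a profile into another was 20.7 to 24.0% over the 4 pairs of a drought and a control library, and 23.0 to 23.8% for drought and title-heat. It was 38.0 to 41.7% for drought and title-cold and 42.5 to 46.5% for drought and submergence. Replicates differed by 9.37% in drought and by 7.19% in control, so each of these distances was more than the spread within a group. Tested gene by gene, drought differed from title-heat in 6107 genes (22.2%), from title-cold in 11408 (41.4%) and from submergence in 15256 (55.3%). The submergence libraries read more genes at 10 counts or more, 25967 and 26054 against 18638 and 18802 in drought. How much this adds to their difference was not tested. Total counts in place of TMM shifted the median log2 difference by 0.15 for title-heat, −0.56 for title-cold and −0.63 for submergence.

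**Figure D5:**
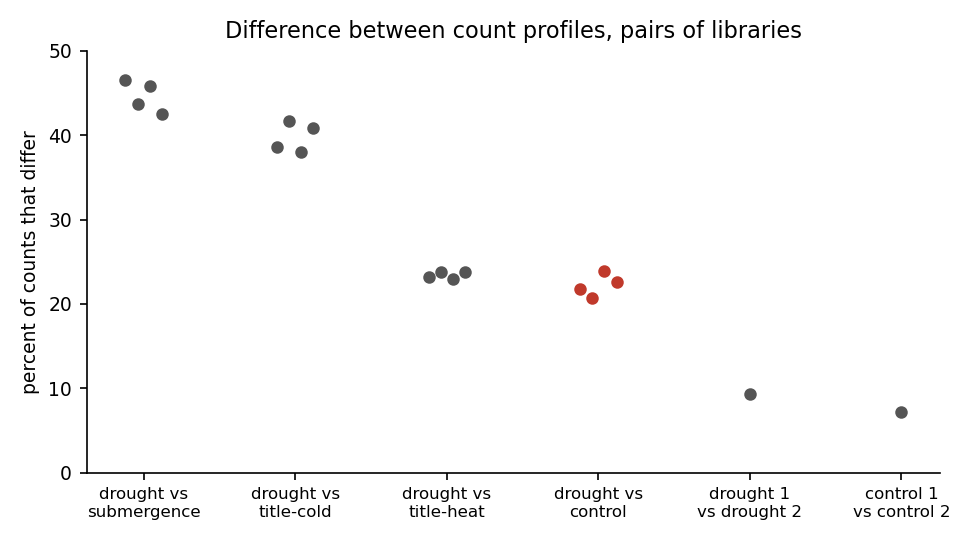
Percent of counts that differ between the profiles of a pair of libraries, for the 4 pairs between drought and each other group and for the replicate pair of drought and of control. Drought and control (red) differ by 20.7 to 24.0%, the drought replicates by 9.37% and the control replicates by 7.19%.

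A smaller set of genes set drought apart from every other group. A gene was counted where drought differed in the same direction from control, submergence, title-cold and title-heat, judged by the largest of the 4 p-values with adjustment over all genes. By this test 528 genes (1.92%) were higher in drought than in each other group and 199 (0.722%) were lower. In each, both drought libraries lay beyond all 8 others. Of all tested genes, both drought libraries lay above the other 8 in 2816 and below them in 2256. The counts were 255 and 76 without drought replicate 2, and lower genes numbered 95 without drought replicate 1 and 109 without control replicate 2. With no filter on low counts they were 1109 and 487, but p-values of that fit were far smaller and its calls are not relied on.

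Median levels of the 528 higher genes were 60.4 CPM in drought, 9.18 in submergence, 9.39 in title-cold, 14.5 in title-heat and 9.46 in control. The median ratio of drought to the next highest group, with a floor of 3 counts, was 3.26, and 195 genes exceeded it at least 4-fold. That next group was title-heat for 275 genes, submergence for 103, title-cold for 72 and control for 78. The gene with the largest such ratio had 44.0 and 45.7 CPM in drought, 0.11 and 0.24 CPM in title-heat, 0 and 0.19 CPM in control, and 0 in the 4 submergence and title-cold libraries (adjusted p = 0.000789, edgeR). The second had 32.1 and 26.8 CPM in drought and at most 0.36 CPM in any other library (adjusted p = 0.000808). Neither c158600.graph_c0 (adjusted p = 0.151) nor c156546.graph_c0 (adjusted p = 0.225) passed this test, although each had its highest mean in drought.

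The 199 lower genes had a median of 3.82 CPM in drought, 15.3 in submergence, 19.9 in title-cold, 15.4 in title-heat and 14.5 in control, and 15 had 0 counts in both drought libraries. The next lowest group was title-heat for 81, control for 50, submergence for 49 and title-cold for 19. The gene with the largest ratio had 0.1 and 0 CPM in drought and 12.3 to 491 CPM in the other 8 libraries (adjusted p = 0.0479, edgeR), a call lost without drought replicate 1 (adjusted p = 0.254) or 2 (adjusted p = 0.337). The gene with the second largest ratio had 0.21 and 1.1 CPM in drought, 1700 and 1630 CPM in title-heat, and 20.1 and 20.0 CPM in control (adjusted p = 0.00321, edgeR). Genes called against control alone were a wider set. Of the 4194 higher genes, drought had the highest mean of the 5 groups in 2530 (60.3%), submergence in 791, title-heat in 705 and title-cold in 168. Of the 3223 lower genes, drought had the lowest mean in 1803 (55.9%), submergence in 811, title-heat in 350 and title-cold in 259. Over all 27571 tested genes, drought had the highest mean in 4621 (16.8%) and the lowest in 9185 (33.3%), while submergence had the highest in 9369 (34.0%). The submergence libraries read 25967 and 26054 genes at 10 counts or more, against 18638 and 18802 in drought. Not all tested genes were therefore read in drought, which lowers the 16.8%. A tie of drought with another group for the lowest mean, as where both had 0 counts, was credited to drought. The 1803 and 9185 are therefore upper bounds, and groups cannot be ranked by how often they were lowest. Being called against control favours drought as the extreme, so these shares are a description.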

How the data were processed

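RNA-seq libraries of ryegrass leaves were compared, 2 of drought and 2 of control. The authors deposited whole-number read counts per assembled gene. Per the submitters' processing notes, RSEM and DESeq 1.10.1 were used in a role that is not stated, so counts may be rounded estimates in which similar sequences share reads. The sources used here do not give aligner, assembly or strand setting. The file's name also mentions bermudagrass and cold, and its columns match the descriptions of these samples, so whether the counts belong to this species was not tested.

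Of 46394 genes, 27571 (59.4%) passed edgeR's filterByExpr (minimum count 10, total 15), applied over all 10 libraries. A gene could therefore pass through another treatment alone. Counts were scaled with TMM factors and fitted in edgeR 4.0.16 (R 4.3.3) with a robust quasi-likelihood model over all 10 libraries, a coefficient per group and 5 residual degrees of freedom. Dispersion over all genes was 0.0899. P-values were adjusted by Benjamini-Hochberg over all genes tested. Standard errors are the log2 fold change over the square root of F. The libraries of a group were not copies of each other (chi-square over degrees of freedom, 7.05 to 19.7), and each was treated as a replicate. That value cannot tell separate plants from separate preparations of the same RNA.

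Named genes were the called gene with the largest rise and fall among those with at least 10 counts in all 4 libraries, and the called gene with the largest gain and loss in CPM. Genes described without an identifier were chosen after their values were seen. Comparisons, gene lists and rules were chosen with earlier results of these data known. Alternatives covered scaling, filtering, tool, threshold, libraries in the fit, replicate block and each drought or control library left out.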

Additional observations from a re-analysis of the deposited data

Results flagged for a closer look

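Responses of the named genes that differed between drought and another treatment are given here, each tested as the direct log2 difference between the treatments with edgeR and adjusted over all genes. Control cancels in such a difference. For c158600.graph_c0 drought stood higher than submergence by 7.00 (adjusted p = 0.00016), than title-cold by 9.71 (adjusted p = 7.27e-05) and than title-heat by 2.06 (adjusted p = 0.0389), the last lost whichever drought or control library was left out (adjusted p = 0.0530 to 0.151). For c156546.graph_c0 drought stood higher than submergence by 2.71 (adjusted p = 1.53e-05) and than title-cold by 4.33 (adjusted p = 2.27e-06). For c165279.graph_c1 the difference was −4.30 against submergence (adjusted p = 1.04e-05) and −9.68 against title-heat (adjusted p = 1.32e-06). For c164041.graph_c6 it was 0.80 against submergence (adjusted p = 0.0361), which was 0.17 with total counts (adjusted p = 0.54) and 0.55 without drought replicate 2 (adjusted p = 0.184), neither past the threshold, and it was −1.44 against title-cold (adjusted p = 0.00359). In each comparison both drought libraries lay on the stated side of both others. The genes were picked on drought against control, which favours a difference in drought.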

How the results depend on the processing

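The number of calls between drought and control stayed within 1.5 times 7417 (5462 to 7954) with other scalings, another filter, another tool and other fits. These were RLE factors, upper-quartile factors, total counts, a filter of 1 CPM in 2 libraries, DESeq2, the replicate block and fits on fewer groups. At an adjusted p below 0.01 there were 4072 calls, 2581 higher and 1491 lower, 1209 of the lower at least 2-fold, and 237 higher and 55 lower genes unlike every other group, with 7251 genes differing from title-cold and 3058 from title-heat. Fitting the 4 drought and control libraries alone gave 2069 lower calls. With a library left out, calls numbered 4755 to 6149, higher calls 2826 to 3553, lower calls 1929 to 2596, lower calls of at least 2-fold 1489 to 2085, and genes unlike every other group 255 to 387 higher and 76 to 144 lower, where a group of 1 library is assumed to vary like the others and has less power. With no filter there were 9461 calls, and 1109 higher and 487 lower genes were unlike every other group. P-values of that fit were far smaller (adjusted p = 2.05e-241 for c158600.graph_c0, against 0.000196 with the filter, edgeR), so its calls are not relied on. The percent of calls that were higher was 44.43 with upper-quartile factors, 53.63 with no filter, 62.12 with the 4 libraries alone, 63.38 at the stricter threshold and 57.48 to 60.84 with a library left out. Genes differing 2-fold between replicates at 100 CPM or more numbered 32 in drought and 12 in control. The difference of c165279.graph_c1 between drought and title-cold, not called, reversed to 0.06 without drought replicate 1, and ranged from −0.24 to 0.06 with a library left out. The cause of these moves was not tested, except that a stricter threshold lowers the number of calls by construction. Fewer libraries give less power, and how much of the drop came from this was not tested.

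Replicate numbers did not pair the libraries (r = 0.0389 between the replicate deviations of drought and control across genes). With a replicate block the calls numbered 6720, of which 3826 were higher and 2894 lower, and the gene with the largest ratio among those lower than in every other group no longer passed that test (adjusted p = 0.111). Counting depth limits statements on genes under 10 CPM.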

Other observations

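Identifiers were grouped by the number before the dot, whose meaning the files do not state. Among the 2562 groups with 2 or more tested genes, 358 had 2 or more called between drought and control. All called members were higher in 214 of these and lower in 64, and 80 (22.4%) held members called in opposite directions. Among all calls 56.55% were higher with TMM factors and 44.43% with upper-quartile factors, and the groups were counted with TMM factors only. The split was not tested against groups of unrelated genes.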
